A study of Mus musculus with 19 samples.

Results

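The small RNA of mouse sperm was compared between mice exposed to dicyclohexyl phthalate (DCHP), a plasticizer, and control mice, as seen by PANDORA-seq. All libraries made with PANDORA-seq were used, 4 from control and 5 from DCHP-exposed sperm, which are 9 of the 19 libraries of the series. The other 10 libraries, 5 control and 5 DCHP, were made by traditional small RNA sequencing. The mice were wild type males of the C57BL/6J strain, 8 weeks old at the start, and received corn oil or 10 mg/kg body weight of DCHP daily by oral gavage for 4 weeks. Both groups were gavaged, so they differ in the DCHP itself. The treatment field of the labels gives DCHP for all libraries alike, and the titles tell control from exposed. Sperm was released from the cauda epididymis, the residual somatic cells were lysed, and RNA of 15 to 50 nt was cut from a gel. The study describes the libraries as biological replicates of mice, and whether the sperm of several mice was pooled is not given in the sources used here.

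Mature sperm transcribe little, and the short RNA they carry is mostly made of fragments of transfer RNA (tsRNA) and ribosomal RNA (rsRNA), with smaller amounts of microRNA (miRNA) and pieces of messenger RNA. Part of this RNA is taken up from the epididymis during maturation. In PANDORA-seq, the demethylase AlkB takes off methyl groups at which reverse transcription halts, and T4 polynucleotide kinase repairs fragment ends so that adapters can be ligated. Mitochondrial tRNAs are encoded in the mitochondrial genome and read its codons inside the organelle. A histidine tRNA is known to carry an additional guanosine at its 5′ end.

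Sequences of the RNAs that the values below turn on are given first. The mitochondrial histidine tRNA, mt-Th (chrM:11546-11612, plus strand, GRCm38), gave the largest difference among abundant genes. Its fragments were read in 2 forms, and capitals mark 2 G read before the annotated start. The gene before it, mt-Nd4, ends 1 base short of mt-Th and its last base is not a G, so the first of the 2 G is not encoded there. The base between the genes was not in the reference used here, so whether the other G is encoded was not tested.
mt-Th 5′ read: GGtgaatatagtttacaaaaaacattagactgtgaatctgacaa
mt-Th inner read: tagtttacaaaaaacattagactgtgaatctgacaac
The mature miRNAs below, from RefSeq of GRCm38.p6, are the most abundant one and 3 of the miR-200 family, with the seed (bases 2 to 8) in capitals. The seeds of miR-200b and miR-429 are the same. The leading read was the mature form for miR-200b, and was 20 or 21 nt long, not the 22 nt form shown, for the other 3.
mmu-miR-148a-3p: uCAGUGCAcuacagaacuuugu
mmu-miR-200a-3p: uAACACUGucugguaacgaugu
mmu-miR-200b-3p: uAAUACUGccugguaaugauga
mmu-miR-429-3p: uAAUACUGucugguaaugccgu
The most abundant reads of 18S and 5S rRNA are shown because their lengths, 30 and 36 nt, are those of the peaks of read length. The capital in the 18S read marks T18G, counted from 1 at the 5′ end of the read, a difference from the annotated copy on chromosome 17.
18S rRNA: aagaacgaaagtcggagGttcgaagacgat
5S rRNA: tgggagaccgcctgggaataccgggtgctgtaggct
The small nucleolar RNAs Snord80 (chr1:161037601-161037681, plus strand) and Gm25878 (chr2:167063473-167063565, plus strand) had the smallest p-values in their class, and the leading read of each is shown.
Snord80: atgtctttcgctcctatctgat
Gm25878: gtaaatgatgaactcacttttttccccgt

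The libraries held 25432054 to 56506344 reads of 15 to 45 nt, and levels are given as reads per 1000000 reads of a library (RPM) or as percent of its reads. No 2 libraries of a group agreed within counting error. Between 50.9% and 61.4% of the reads of a library matched no gene used here. 28S rRNA and all but 13 of 408 nuclear tRNA loci were not in the reference. The mRNAs of late spermatids, which mature sperm retain, were present. Protamine 2 (Prm2), which packs sperm DNA, averaged 32.6 RPM in control and 35.8 RPM in DCHP libraries, and Odf1, of the outer dense fibres of the tail, lay between 67.1 and 113 RPM in all 9 libraries.

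In 15342 groups of genes, no difference between DCHP and control passed an adjusted p of 0.1 in the quasi-likelihood test of edgeR (0.0% of those tested). The smallest adjusted p was 0.9999, and 339 groups (2.21%) had an unadjusted p below 0.05, of which 219 were higher (1.43% of those tested) and 120 were lower (0.782%) in DCHP. A gene group holds small RNA genes that share most of their reads, or a single mRNA or long noncoding RNA. In DESeq2, 0 groups passed with total reads as library size (0.0%) and 1 passed with size factors of its own (0.00652%). In edgeR, 1 group passed with total miRNA reads as library size (0.00652%), 1 with replicate number as a block (0.00682%), 1 with exact matches alone (0.00654%), and 45 of 42344 without a filter on low counts (0.106%). The genes that passed without the filter included mt-Th, Mir143, Mir146b, Mir200a, Mir200b, Mir429, Mir34c, Mir881, Mir1957a and Tmsb10, higher in DCHP, and Snord80 and Gm25878, lower. The 339 became 59 with total miRNA reads as library size and 615 with TMM library sizes. Leaving out 1 library gave 234 (without DCHP 4) to 596 (without DCHP 3) groups with an unadjusted p below 0.05, and also 589 without control 2 and 550 without control 3. The groups did not overlap between control and DCHP for 93 gene groups (0.606%). The median log2 fold change over all gene groups was 0.01, with a median standard error (SE) of 0.26. The values of single genes below are therefore descriptions of sizes and spread, and none of them passed in this test.

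**Figure D1:**
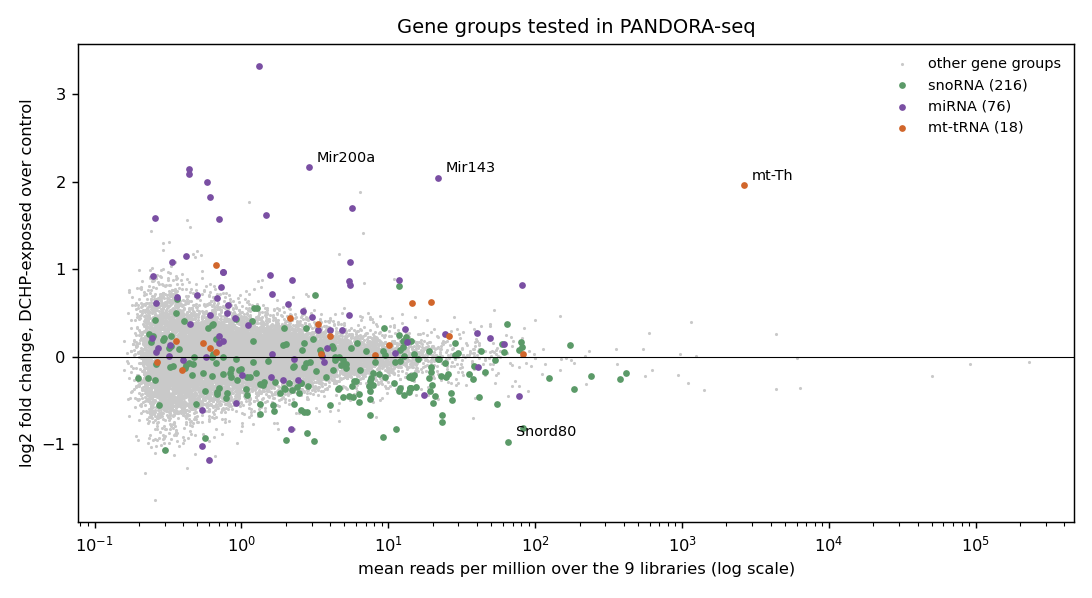
Log2 fold change of DCHP-exposed over control sperm (vertical axis) against the mean level over the 9 libraries in RPM (horizontal log axis) for each of the 15342 gene groups, with snoRNAs, miRNAs and mitochondrial tRNAs in colour. mt-Th lies alone at high level with a log2 fold change of 1.96, most miRNAs lie above 0 and most snoRNAs below 0, and no point passed an adjusted p of 0.1.

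Among 18 classes of RNA, the mitochondrial tRNAs were the one whose share of reads did not overlap between groups. Mitochondrial tRNA reads took 0.0913%, 0.148%, 0.0423% and 0.191% of control libraries 1 to 4. They took 0.388%, 0.213%, 0.641%, 0.628% and 0.201% of DCHP libraries 1 to 5. The lowest DCHP library was just above the highest control library, and the ratio of the means was 3.51. The exact two-sided permutation test gave p = 0.0397, with an adjusted p of 0.714 over the 18 classes. None of the 18 passed (0.0%), and this was the only one below 0.05 before adjustment (5.56%). Without control 1 or control 3, with levels taken per miRNA read, or with reads that hold 2 G before mt-Th counted for that gene, no class was below 0.05. The smallest p that 4 against 5 libraries allow is 0.00794, so that 1 class alone could not have passed after adjustment over the 18. With replicate number as a block the smallest is 0.125, so that fit could not place any class below 0.05.

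The other classes overlapped between groups. Reads of 18S rRNA took 23.5% ± 3.89 (SD, n = 4) of control and 22.6% ± 3.81 (SD, n = 5) of DCHP reads. Reads of 5S rRNA, the small RNA of the large ribosomal subunit, took 9.36% ± 3.50 and 8.81% ± 1.72. Nuclear mRNA without Lars2 took 3.68% ± 0.436 and 3.75% ± 0.427. Small nucleolar RNAs (snoRNA) took 0.393% ± 0.131 and 0.346% ± 0.0739, and miRNAs took 0.0510% ± 0.0184 and 0.0622% ± 0.0365. In these 5 classes the difference of the means was smaller than the SD of the control libraries. In bulk libraries, fewer cells of a type and less RNA per cell cannot be told apart.

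**Figure D2:**
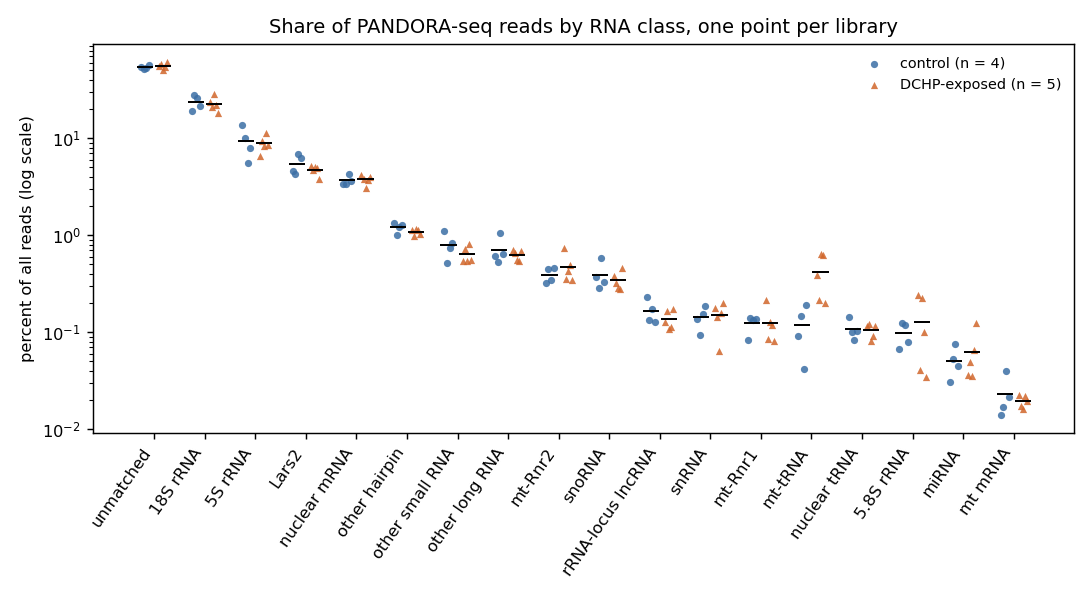
Percent of all reads (vertical log axis) in each of 18 RNA classes, with one point per library for 4 control and 5 DCHP-exposed libraries and a bar at each mean. The mitochondrial tRNAs are the class whose groups do not overlap, with control at 0.0423% to 0.191% and DCHP at 0.201% to 0.641%. Reads with 2 G before mt-Th are not counted in this class here, and with them its groups overlapped.

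The difference in mitochondrial tRNA reads lay mostly in 1 gene, mt-Th, which decodes histidine codons. Reads that match mt-Th as annotated were at 805, 1352, 150 and 1763 RPM in control libraries 1 to 4. They were at 3697, 1992, 6234, 6042 and 1806 RPM in DCHP libraries 1 to 5. Every DCHP library lay above every control library, DCHP 5 by a small margin, and DCHP 2 and 5 lay near controls 2 and 4. The log2 fold change was 1.96 (SE 0.50, unadjusted p = 0.000839, adjusted p = 0.9999 by edgeR). Leaving out 1 library at a time gave 1.60 to 2.36, the lowest without control 3, the control library with the least mt-Th. With replicate number as a block, which uses replicates 1 to 4, mt-Th was the 1 gene group that passed, at a log2 fold change of 2.33 and an adjusted p of 3.77e-06 by edgeR, although the numbers were not found to pair the libraries. Without a filter on low counts it passed at a log2 fold change of 1.96 (SE 0.33, adjusted p = 1.92e-05 by edgeR). Over the other alternatives its adjusted p was 0.875 or higher.

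More mt-Th reads began with 2 G before the gene than matched it as annotated. Reads of that form were 63.1% of all mt-Th reads, 30.9% started and ended inside the gene, 5.86% ended within 3 bases of the CCA end that is added to every tRNA, and 0.217% began within the first 3 bases of the gene. No read covered the 70 nt of the gene with CCA, which is longer than the reads kept. With 1 G before the gene, reads were at most 4.48 RPM.

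The form with 2 G before the gene overlapped between groups. It was at 902, 2968, 838.5 and 2631 RPM in control and at 10805, 3574, 8218, 6817 and 2371 RPM in DCHP libraries. DCHP 5 lay below controls 2 and 4, and the ratio of means was 3.46 (exact two-sided permutation p = 0.0556). The reads inside the gene had a ratio of 4.16 (exact permutation p = 0.0397) and those with the CCA end 2.80 (exact permutation p = 0.0476). With both forms counted, mt-Th averaged 2852 RPM in control and 10311 RPM in DCHP libraries, a ratio of 3.61, and the share of all mitochondrial tRNA reads then overlapped between groups (exact permutation p = 0.0556, adjusted p = 0.874).

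The leading read of each form varied widely between libraries. The 44 nt read printed above, which runs from the 2 G past the anticodon, was at 684, 2351, 329 and 1999 RPM in control and at 9379, 2829, 6278, 4626 and 1677 RPM in DCHP libraries. DCHP 5 again lay within the control range. The 37 nt inner read, from base 7 to base 43 of the gene, ranged from 1.46 to 193 RPM in control and from 103 to 897 RPM in DCHP libraries.

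The other 21 mitochondrial tRNAs together were at 108 to 273 RPM in control and 133 to 237 RPM in DCHP libraries, a ratio of 1.15 (exact permutation p = 0.540). Of 17 that had enough reads to be tested, 15 were above 0 in log2 fold change, with a median of 0.16, beside 0.01 over all gene groups. Beside 2.21% of all gene groups, 2 of the 17 had an unadjusted p below 0.05. With mt-Th among them, 16 of 18 were above 0, and 11 of 18 without control 4, 12 without control 1 and 13 without DCHP 3 or 4. The median of the 18 was 0.17, and moved to 0.06 without control 1 or DCHP 4 and to 0.50 without control 3. Of the 18, 3 (16.7%) had an unadjusted p below 0.05, beside 2.21% of all gene groups. The 3 became 7 without control 3, beside 3.77% of all gene groups. They became 1 without control 1 or DCHP 4, beside 2.02% and 1.53%. The 2 of 17 below 0.05 were the threonine tRNA mt-Tt and the lysine tRNA mt-Tk. mt-Tt was at 8.65, 17.0, 15.6 and 18.8 RPM in control and at 30.4, 22.1, 15.3, 31 and 17.0 RPM in DCHP libraries. Its groups overlapped, with a log2 fold change of 0.62 (SE 0.25). mt-Tk stayed at 0.157 to 1.48 RPM, with a log2 fold change of 1.05 (SE 0.42).

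The glutamate tRNA mt-Te was the next most abundant after mt-Th, and its groups overlapped. It was at 50.2, 55.9, 173.5 and 47.6 RPM in control and at 56.7, 54.2, 88.6, 108 and 110 RPM in DCHP libraries, with a log2 fold change of 0.03 (SE 0.33). Control 3 had the most mt-Te and the least mt-Th of the control libraries. The serine tRNA mt-Ts2, encoded directly after mt-Th (chrM:11613-11671), was at 11.3, 6.09, 0.324 and 27.0 RPM in control and at 25.3, 15.2, 9.06, 13.9 and 22.8 RPM in DCHP libraries. Its groups overlapped, with a log2 fold change of 0.62 (SE 0.56), and control 3 was lowest here too. The glycine tRNA mt-Tg (log2 fold change 0.24, SE 0.32) and the glutamine tRNA mt-Tq (0.14, SE 0.20) also overlapped. The mitochondrial tRNAs mt-Td, mt-Tf, mt-Tl2 and mt-Tw had too few reads to be tested.

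**Figure D3:**
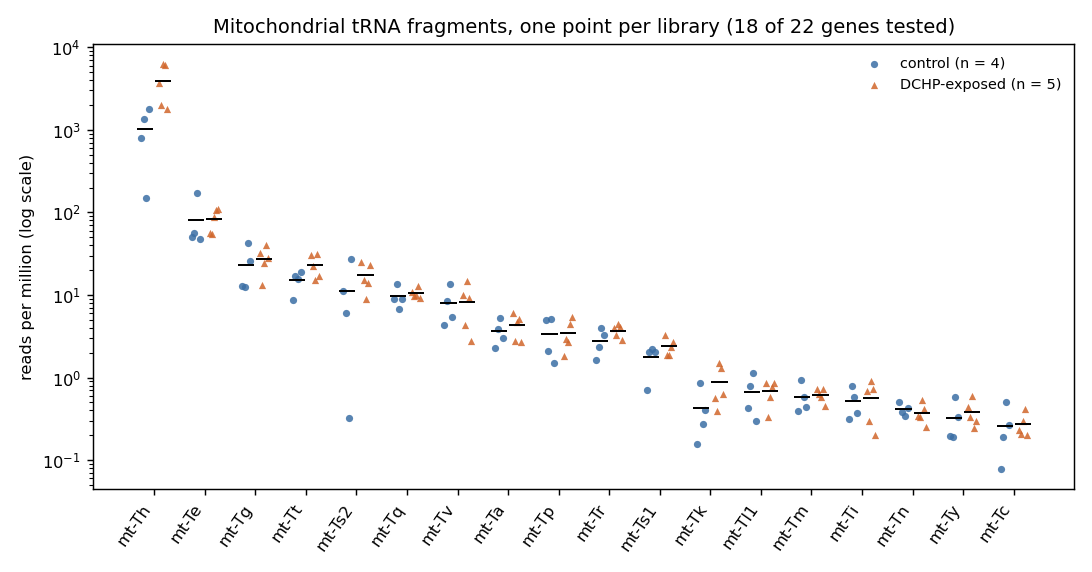
RPM (vertical log axis) of the 18 mitochondrial tRNAs tested, with one point per library for 4 control and 5 DCHP-exposed libraries and a bar at each mean. mt-Th stands above the others and is the one gene whose groups do not overlap, at 150 to 1763 RPM in control and 1806 to 6234 RPM in DCHP. Reads with 2 G before mt-Th are left out here, and with both forms counted its groups overlapped.

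In the traditional libraries, mt-Th as annotated averaged 2706 ± 1429 RPM (SD, n = 5) in control and 3418 ± 924 RPM (SD, n = 5) in DCHP, a ratio of 1.26. The same ratio was 3.89 in PANDORA-seq. Most mt-Th reads of the traditional libraries held 2 G before the gene, at 18721 RPM in control and 27057 RPM in DCHP, a ratio of 1.45. With both forms summed the ratio was 1.42 in traditional and 3.61 in PANDORA-seq libraries. The difference between methods in the log2 fold change of mt-Th, tested for reads as annotated alone, was 1.62 (unadjusted p = 0.0345, adjusted p = 0.993 by edgeR). Of 9389 gene groups in which this difference was tested, 0 passed (0.0%) and 412 had an unadjusted p below 0.05 (4.39%), or 645 (6.87%) with replicate number as a block, with which 0 passed as well. The difference between methods was thus not shown for any gene group.

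Reads of 41 to 45 nt had larger mean shares in DCHP libraries, although no length passed the test. Reads of 44 nt took 2.57%, 2.26%, 1.71% and 2.57% of control and 5.36%, 4.49%, 2.61%, 3.30% and 3.94% of DCHP libraries. The groups did not overlap, with DCHP 3 just above controls 1 and 4 (exact permutation p = 0.0159, adjusted p = 0.492 over 31 lengths). Reads of 24 nt averaged 3.68% ± 0.722 (SD, n = 4) in control and 2.82% ± 0.207 (SD, n = 5) in DCHP, and overlapped (exact permutation p = 0.0317). Reads of 25 nt averaged 2.13% and 1.73% (exact permutation p = 0.0476). With 0 of 31 lengths past the adjusted threshold (0.0%), these 3 of 31 (9.68%) were below 0.05 before adjustment. Without control 1, 2 or 4, 0 were, without control 3 or DCHP 1, 2, 4 or 5 1 was, and without DCHP 3 4 were.

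The mt-Th reads were part of the 44 nt reads, and not most of them. At 44 nt they took 0.147% ± 0.107 (SD, n = 4) of all control and 0.547% ± 0.322 (SD, n = 5) of all DCHP reads. Without them, 44 nt reads took 2.13% and 3.39% (exact permutation p = 0.0794), and the groups overlapped, with DCHP 3 at 1.92%. The mean length of all reads was 32.4 ± 0.553 nt (SD, n = 4) in control and 33.1 ± 0.998 nt (SD, n = 5) in DCHP (exact permutation p = 0.270).

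Read lengths were also tested within RNA classes. At 44 and at 45 nt, all 16 classes tested had a log2 fold change above 0, with medians of 0.61 and 0.71, and 9 and 7 of them had an unadjusted p below 0.05. At 30 nt 13 of 16 classes were below 0, with a median of -0.28. Of 503 pairs of class and length, 0 passed in edgeR (0.0%), with 18 in DESeq2 on total reads and 11 with its own size factors. In edgeR, 52 had an unadjusted p below 0.05 (10.3%), which became 19 with total miRNA reads as library size and 27 with replicate number as a block. Of these, 27 were mitochondrial tRNA, at all lengths but 15, 16, 24 and 25 nt, and all were higher in DCHP. The other classes had 25, of which the 19 at 42 to 45 nt were all higher and the 6 at shorter lengths were all lower in DCHP. The lengths of the classes come from the same 9 libraries and are not independent of each other.

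Some classes of unlike origin had log2 fold changes of like size at 44 nt, beside a median of 0.61 over the 16 classes tested. Other classes, 18S rRNA and snoRNA among them, had 0 lengths with an unadjusted p below 0.05. Nuclear mRNA fragments of 44 nt had a log2 fold change of 0.58 (SE 0.24), those of small nuclear RNA 0.93 (SE 0.40), those of mt-Rnr2, the large mitochondrial rRNA, 0.90 (SE 0.36), those of 5S rRNA 0.79 (SE 0.36), and unmatched reads 0.87 (SE 0.23). Of these only the unmatched reads did not overlap between groups, and the smallest adjusted p was 0.301 by edgeR. The unmatched reads include the mt-Th reads with 2 G before the gene. Without these, unmatched 44 nt reads were at 10924 to 14472 RPM in control and 13873 to 31194 RPM in DCHP libraries, which overlapped, with a ratio of means of 1.61 (exact permutation p = 0.0635). The mean length of mitochondrial tRNA reads was 35.3 ± 4.08 nt (SD, n = 4) in control and 38.4 ± 0.905 nt (SD, n = 5) in DCHP (exact permutation p = 0.0238, adjusted p = 0.429). It was the 1 class of 18 below 0.05 before adjustment (5.56%), none passed after it (0.0%), and control 3 had a mean of 29.3 nt. Without control 3 the means were 37.4 and 38.4 nt (exact permutation p = 0.143), and leaving out any other library but control 4 also gave a p above 0.05. Over all PANDORA-seq reads, those of mt-Th as annotated averaged 38.6 nt and those of mt-Te 24.8 nt. The mean of the class therefore also follows how much of each gene a library held. The mean length within mt-Th alone was not tested. miRNA reads averaged 21 nt in both groups. Whether gel cutting or read cleaning moved the lengths was not tested.

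**Figure D4:**
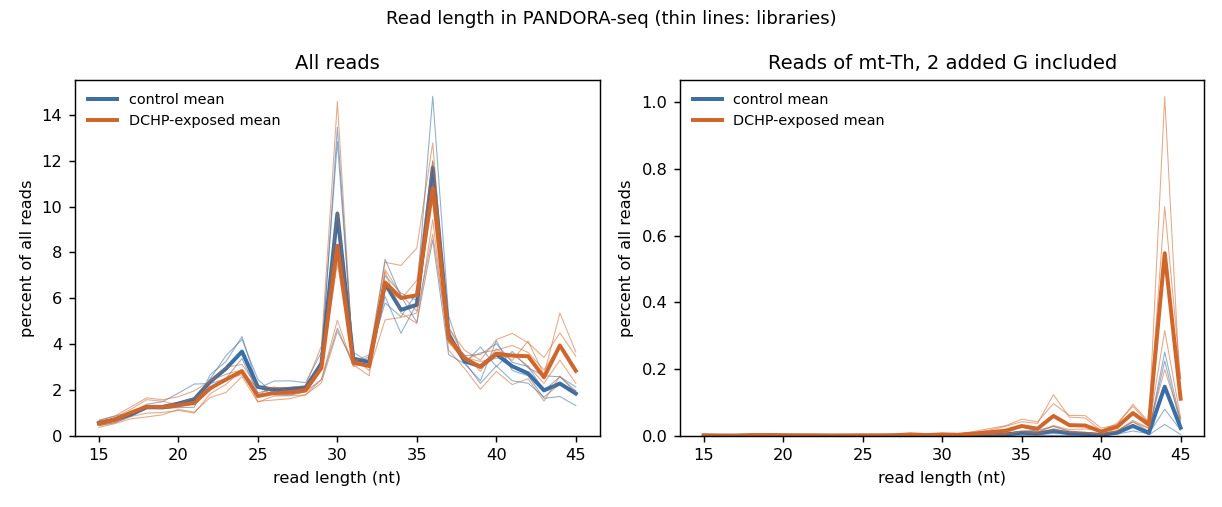
Percent of all reads (vertical axes) by read length in nt (horizontal axes), for all reads on the left and for mt-Th reads on the right, with thin lines for libraries and thick lines for the means of 4 control and 5 DCHP-exposed libraries. Peaks stand at 30 and 36 nt in both groups, and at 44 nt the DCHP mean is 3.94% against 2.28% in control, of which mt-Th holds 0.547% and 0.147%.

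Among miRNA hairpins, those with at least 50% of their reads at 20 to 24 nt, 17 of 76 had an unadjusted p below 0.05 and all 17 were higher in DCHP, beside 1.43% of all gene groups. Of the 76, 60 were above 0 in log2 fold change, with a median of 0.37. None passed after adjustment. With total miRNA reads as library size, the study's own scaling, 11 were higher and 4 lower, with a median of 0.13. Over all gene groups, 0.385% were below 0.05 with that scaling, and the median was -0.10. That scaling holds the summed miRNA level fixed, so a rise of the class total cannot show in it. With replicate number as a block the median was 0.10, and 8 of 68 were higher and 3 lower, beside 1.47% of all gene groups. The direction rested on DCHP libraries 4 and 5. Without both, 64 hairpins were tested, 45 of them were below 0, and the median was -0.22, with 1 higher and 2 lower at an unadjusted p below 0.05. Without DCHP 5 alone, the median was 0.05, with 4 higher and 2 lower. Without control 2, 29 were higher and 3 lower, without control 1 10 and 1, and without DCHP 1 25 and 1. The filter of at least 10 reads in at least 4 libraries can be met by DCHP libraries alone. It was for Mir106b, at 0.106 to 0.236 RPM in control and up to 1.84 RPM in DCHP libraries. The count of hairpins that were higher is thus not independent of the filter. Without the filter, 53 of 182 had an unadjusted p below 0.05, 47 higher and 6 lower, beside 3.56% of all gene groups. A RefSeq hairpin was found for 65 of the 76.

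The most abundant miRNA was miR-148a, which is expressed in many epithelia. Mir148a (chr6:51269812-51269910) was at 19.97, 40, 117 and 51.2 RPM in control and at 27.4, 47.7, 54.4, 131 and 243 RPM in DCHP libraries. DCHP 4 and 5 were above all controls and DCHP 1 to 3 lay within them, with a log2 fold change of 0.82 (SE 0.50), and -0.40 without those 2 libraries. Mir10a, hosted in a Hox cluster, lay at 35.7 to 94.5 RPM in control and 41.4 to 89.8 RPM in DCHP libraries (log2 fold change 0.15, SE 0.28). Of the let-7 family, which restrains proliferation and growth genes, 7 of 8 groups tested were above 0, with a median of 0.24. An unadjusted p below 0.05 was seen in 1 of the 8, beside 2.21% of all gene groups. Without DCHP 5, 7 of 8 were below 0, with a median of -0.39. With total miRNA reads as library size 7 of 8 were below 0 too, with a median of -0.18, beside -0.10 over all gene groups. The summed level of the family was 65.2 to 134 RPM in control and 76.3, 101, 31, 90.1 and 304 RPM in DCHP libraries 1 to 5.

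The miR-200 family, which keeps epithelial cells epithelial, had a log2 fold change near 2 that came from the same 2 libraries. Mir200a (chr4:156054896-156054985) was at 0.197, 0.832, 1.94 and 0.814 RPM in control and at 0.824, 1.08, 1.21, 5.20 and 13.9 RPM in DCHP libraries. Mir200b was at 1.34, 2.38, 3.89 and 2.35 RPM and at 1.63, 2.34, 2.72, 14.2 and 20.2 RPM. In both genes, DCHP 1 to 3 lay within the control range and DCHP 4 and 5 above it. The log2 fold changes were 2.17 (SE 0.67) for Mir200a and 1.70 (SE 0.56) for Mir200b, and 0.07 and -0.18 without DCHP 4 and 5. All 4 tested members of the list of 5 miR-200 genes, markers of epithelium, were above 0.

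Mir143, a miRNA of smooth muscle and fibroblasts, had the same pattern. It was at 2.48, 13.4, 9.99 and 5.96 RPM in control and at 4.58, 10.8, 8.50, 29.2 and 111 RPM in DCHP libraries. The log2 fold change was 2.05 (SE 0.66), and -0.00 without DCHP 4 and 5. Mir146b, chosen after its values were seen and induced by inflammatory signals, had the largest log2 fold change of all gene groups at 3.33 (SE 0.999). It stood at 9.48 RPM in DCHP 5 and at most 0.838 RPM elsewhere.

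The germ cell miRNAs were mostly above 0, and less so without DCHP 5. miR-34c, a miRNA of meiotic and later male germ cells, was at 0.511, 0.756, 0.671 and 0.761 RPM in control and at 0.718, 1.11, 0.906, 2.23 and 5.53 RPM in DCHP libraries. DCHP 1 lay within the control range and the other 4 above it, with a log2 fold change of 1.62 (SE 0.46), and 0.41 (SE 0.31) without DCHP 4 and 5. Mir881, of a cluster on chromosome X active in the testis, reached 21 RPM in DCHP 5 and was at 1.34 to 6.20 RPM in the other 8 libraries. Mir465b-1, of the same region, had a log2 fold change of 0.04 (SE 0.25). Of 10 tested groups of the spermatogenic list, 9 were above 0, with a median of 0.61 and 3 at an unadjusted p below 0.05, all higher, beside 1.43% of all gene groups. Without DCHP 5, which had 59.99 RPM of the summed list where the other 8 libraries had 16.5 to 34.6 RPM, 8 groups were tested, 5 were above 0, the median was 0.13 and 1 was below 0.05. With total miRNA reads as library size, 8 of 10 were above 0, with a median of 0.25.

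Another hairpin kept its value without DCHP 4 and 5. Mir1957a (chr4:119129779-119129844) was at 4.44, 4.20, 2.91 and 3.91 RPM in control and at 5.92, 8.24, 6.21, 7.86 and 5.99 RPM in DCHP libraries. The groups did not overlap, with a log2 fold change of 0.83 (SE 0.19, unadjusted p = 0.000219, adjusted p = 0.9999 by edgeR), the smallest unadjusted p of any gene group, and 0.82 without both libraries. Its leading read had 1 mismatch to the annotated hairpin, so these reads may come from another gene, and with exact matches alone the hairpin was not among the groups tested. Mir5099, whose leading read also had 1 mismatch and may likewise be of another gene, was at 47.5 to 170 RPM in control and 45.8 to 98.6 RPM in DCHP libraries (log2 fold change -0.44, SE 0.30).

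**Figure D5:**
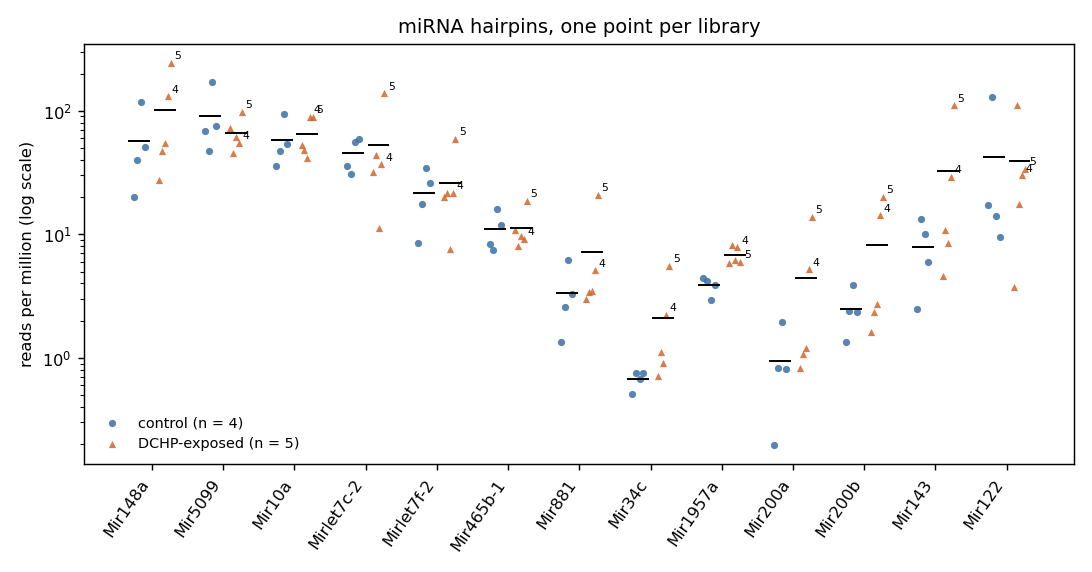
RPM (vertical log axis) of 13 miRNA hairpins, with one point per library for 4 control and 5 DCHP-exposed libraries, a bar at each mean, and numbers at DCHP libraries 4 and 5. For Mir200a, Mir200b and Mir143 those 2 libraries lie above the control range and the other 3 within it, and for Mir1957a all 5 DCHP libraries lie above all controls.

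Marker levels of other cell types were compared in the same libraries. The summed miR-200 markers were at 2.63 to 8.12 RPM in all libraries but DCHP 4 and 5, which had 23.6 and 42.8 RPM. The summed muscle miRNAs (Mir143, Mir145a, Mir1a, Mir133 and relatives) were at 2.75 to 14.6 RPM, with 30.4 and 113 RPM in DCHP 4 and 5, of which Mir143 alone made up 29.2 and 111 RPM. Mir122, the miRNA of hepatocytes, was at 129 RPM in control 2 and 111 RPM in DCHP 2, and between 3.74 and 34.1 RPM elsewhere. Blood miRNAs summed to 1.57 to 2.43 RPM in control and 0.676 to 2.72 RPM in DCHP libraries.

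The mRNA markers of the same cell types were compared as well. Epididymal epithelium mRNAs summed to 531 to 894 RPM in control and 504 to 990 RPM in DCHP libraries, of which DCHP 4 and 5 had 793 and 776 RPM. In this list of 20, 8 were tested and 0 had an unadjusted p below 0.05. Smooth muscle and fibroblast mRNAs summed to 140 to 189 RPM in control and to 222, 167, 171, 199.5 and 207 RPM in DCHP libraries 1 to 5, so that DCHP 1, 4 and 5 were above all controls. In this list, 1 of 10 had an unadjusted p below 0.05, beside 2.21% of all gene groups. It was the intermediate filament vimentin (Vim), whose groups did not overlap, as in 0.606% of all gene groups, at 5.31 to 6.61 RPM in control and 7.14 to 9.70 RPM in DCHP libraries. Blood mRNAs summed to 34.8 to 63.8 RPM and 43.8 to 55.7 RPM, with S100a8, of neutrophils, the 1 of 9 below 0.05, beside the same 2.21% (log2 fold change 0.94, SE 0.40). The part of other cells in the miRNA values of DCHP 4 and 5 was not tested.

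Along the rRNAs, with each read counted in the window of its midpoint, no window of 20 nt passed the test. Of 214 windows tested, 0 passed in edgeR (0.0%) and in DESeq2, and 4 had an unadjusted p below 0.05 in edgeR (1.87%), 2 in 18S and 2 in mt-Rnr2. The smallest adjusted p was 0.989. Median log2 fold changes were 0.01 over 93 windows of 18S, 0.18 over 6 of 5S, 0.45 over 4 of 5.8S, 0.05 over 44 of the small mitochondrial rRNA mt-Rnr1 and 0.17 over 67 of mt-Rnr2.

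A large part of the rRNA reads came from a few places, and these varied more between libraries than between groups. In 18S, the part of the small ribosomal subunit, 35.2% of the reads had their midpoint at bases 1041 to 1060. The 30 nt read printed above, from base 1034 to base 1063, is among them. This window was at 28224, 125171, 122655 and 69103 RPM in control and at 93166, 34233, 160003, 64749 and 31152 RPM in DCHP libraries. The lowest and the highest library differed over 5-fold within DCHP, and the log2 fold change was -0.17 (SE 0.52). The libraries with the least of this window, control 1 and DCHP 2 and 5, also had the least 30 nt reads, at 4.69%, 5.04% and 4.55% of all reads, where the other 6 had 7.51% to 14.6%.

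In 5S rRNA, 82.5% of the reads had their midpoint in the last window, bases 101 to 119, where its 36 nt leading read ends. It was at 116470, 90822, 44688 and 64373 RPM in control and at 51717, 68625, 75007, 95238 and 57831 RPM in DCHP libraries, with a log2 fold change of -0.18 (SE 0.39). In mt-Rnr2, bases 1261 to 1280 held 29.2% of the reads, at 933, 1111, 834.5 and 1367 RPM in control and 2300, 1143, 1090, 1593 and 1078 RPM in DCHP libraries. DCHP 1 and 4 were above all controls and the other 3 within their range (log2 fold change 0.44, SE 0.32). The most abundant window of 5.8S rRNA, bases 81 to 100, ranged from 261 to 2024 RPM within DCHP alone.

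Small nucleolar RNAs, which guide methylation and pseudouridylation of rRNA, were mostly lower in DCHP. Of 216 groups, 21 had an unadjusted p below 0.05, of which 19 were lower, beside 0.782% of all gene groups, and 152 were below 0, with a median of -0.18. None passed after adjustment. By type, 5 of 72 Snord (C/D box), 3 of 30 Snora (H/ACA box) and 1 of 7 Scarna (Cajal body) groups were lower at an unadjusted p below 0.05, and none of these was higher. The sign of the median rested on control 3, whose snoRNA share was 0.583% where the other 8 libraries had 0.278% to 0.455%. Without control 3, the median was 0.05, beside 0.12 over all gene groups, and 84 of 210 were below 0. At an unadjusted p below 0.05, 13 were then higher and 14 lower, beside 3.77% of all gene groups. Without control 2, 2 were higher and 35 lower, beside 3.85% of all gene groups, and without DCHP 5 0 and 39, beside 2.06%.

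Snord80, a C/D box snoRNA of the Gas5 host gene, was at 94.2, 66.8, 142 and 58.0 RPM in control and at 68.2, 39.8, 50.6, 29.3 and 41.9 RPM in DCHP libraries. Only DCHP 1 reached the control range, and the log2 fold change was -0.97 (SE 0.26, unadjusted p = 0.00134). Its reads were short, with 86.6% of them at 20 to 24 nt, and the 22 nt read printed above lies at bases 53 to 74 of 81. Gm25878 was at 12.5, 13.6, 14.4 and 9.26 RPM in control and at 9.38, 6.80, 7.90, 4.22 and 4.69 RPM in DCHP libraries. DCHP 1 was just above the lowest control, with a log2 fold change of -0.91 (SE 0.22). The most abundant snoRNAs, U3 (Rnu3b1 and copies), which acts in the first cleavages of pre-rRNA, and Snord14c, had log2 fold changes of -0.18 (SE 0.23) and -0.25 (SE 0.28), and overlapped.

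Small nuclear RNAs, most of which serve the spliceosome, overlapped between groups as a class, with 0.142% ± 0.0380 (SD, n = 4) of control and 0.149% ± 0.0519 (SD, n = 5) of DCHP reads. Of 13 groups, 1 had an unadjusted p below 0.05, beside 2.21% of all gene groups. It was U5 (Rnu5g and copies), which holds the exons together during splicing. It was at 34.9, 37.9, 49.1 and 44.8 RPM in control and at 83.1, 58.0, 40.5, 53.8 and 67.6 RPM in DCHP libraries. DCHP 3 lay within the control range and the other 4 above it (log2 fold change 0.54, SE 0.21). U1 (Rnu1a1 and copies), which binds the 5′ splice site, ranged from 356 to 671 RPM in control and from 203 to 1043 RPM in DCHP libraries. U2 (Rnu2-10 and copies), which binds the branch point, ranged from 417 to 912 RPM and from 284 to 950 RPM. DCHP 3 was lowest for both.

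Among the other small RNAs, the signal recognition particle RNA Rn7s1 and its copies, which direct secreted proteins to the membrane, were highest. Their level was 10149, 4600, 6566 and 7610 RPM in control and 4681, 6529, 4837, 7474 and 4759 RPM in DCHP libraries. Control 1 was highest and the other values overlapped (log2 fold change -0.35, SE 0.28). The 7SK RNA (Rn7sk and copies), an inhibitor of transcription elongation, was at 309 to 391 RPM in control and 261 to 424 RPM in DCHP libraries. Of 11 groups of the nuclear tRNAs in the reference, 0 had an unadjusted p below 0.05, and a valine tRNA, n-TVcac9, was at 452 to 844 RPM and 417 to 669 RPM.

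Fragments of nuclear mRNA gave 11704 of the gene groups, and 218 of them had an unadjusted p below 0.05, 184 higher and 34 lower, with a median log2 fold change of 0.04. That is 1.86% of them, beside 2.21% of all gene groups. With total miRNA reads as library size, 9 were higher and 4 lower, with a median of -0.07, and with TMM library sizes 289 and 128. These numbers moved with single libraries, as did those of all gene groups. Without DCHP 4 and 5 they were 55 higher and 31 lower, without DCHP 1 116 and 92, and without DCHP 5 88 and 55. Of all gene groups, 1.16%, 2.73% and 2.06% were then below 0.05. Without DCHP 3 they were 468 and 16 of 11615, beside 3.94% of all gene groups, and without control 3 361 and 17 of 11454, beside 3.77%. The medians were then 0.10 and 0.12, beside 0.07 and 0.12 over all gene groups. The most abundant were genes of epididymal and deferent duct epithelium. Akr1b7, an aldose reductase relative secreted there, was at 1092, 909, 874 and 937 RPM in control and at 912, 1228, 854, 1012 and 888 RPM in DCHP libraries (log2 fold change 0.04, SE 0.22). Crisp1, a secreted protein that coats sperm, was at 393 to 724 RPM in control and 366 to 788 RPM in DCHP libraries (0.09, SE 0.26), and the cyclooxygenase Ptgs2 at 164 to 247 RPM and 199 to 239 RPM (0.00, SE 0.20). Of the 50 most abundant mRNAs, 25 were above 0 and 2 had an unadjusted p below 0.05, beside 1.86% of all nuclear mRNA.

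The mRNAs of spermatids and sperm were mostly above 0 by small amounts. Of 28 tested, 22 were above 0, with a median of 0.15, beside 0.04 for all nuclear mRNA. An unadjusted p below 0.05 was seen in 1 of the 28, beside 1.86% of all nuclear mRNA. The direction rested on DCHP 5, without which 13 were above and 15 below 0, with a median of -0.01. With total miRNA reads as library size 8 were above and 20 below 0, with a median of -0.08, and with replicate number as a block 13 and 15. The 1 below 0.05 was Meig1, needed for the manchette that shapes the sperm head and tail, at 0.956 to 2.40 RPM in DCHP and 0.983 to 1.42 RPM in control libraries (log2 fold change 0.54, SE 0.24). Odf1 had a log2 fold change of 0.06 (SE 0.20), and Smcp, of the mitochondrial capsule of the midpiece, 0.25 (SE 0.20). The mRNA of smallest unadjusted p was Tmsb10, which binds actin monomers, at 0.0393, 0.265, 0.162 and 0.301 RPM in control and at 0.761, 0.779, 0.302, 0.698 and 0.521 RPM in DCHP libraries. The lowest DCHP library was just above the highest control library, and the log2 fold change was 1.57 (SE 0.40, adjusted p = 0.9999 by edgeR), from under 1 RPM in every library. Tmsb10 met the filter of at least 10 reads in at least 4 libraries through the DCHP group, where it was higher. Its rank and lack of overlap are thus not independent of the filter.

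Mitochondrial mRNAs had no difference of the size of that of mt-Th. None of the 13 had an unadjusted p below 0.05, beside 2.21% of all gene groups. Of the 13, 10 were below 0, with a median log2 fold change of -0.14. The direction rested on control 3, whose summed level was 398 RPM where the other controls had 139 to 213 RPM and DCHP libraries 163 to 226 RPM. Without control 3, 12 of 13 were above 0, with a median of 0.21, beside 0.12 over all gene groups. An unadjusted p below 0.05 was then seen in 2 of the 13, beside 3.77% of all gene groups. mt-Co1, a catalytic subunit of cytochrome oxidase, was at 37.0, 48.8, 97.8 and 53.1 RPM in control and at 56.4, 41.6, 41.7, 55.4 and 45.3 RPM in DCHP libraries (log2 fold change -0.30, SE 0.24). mt-Atp6, of ATP synthase, was at 31.4 RPM in control 3 and at 10.3 to 15.5 RPM in the other 8 libraries. Lars2, the mitochondrial leucine tRNA synthetase, was kept apart from the mRNAs because 99% of its reads lay on bases 3032 to 3359 of a transcript of 3894 nt. Its level was 5.46% ± 1.23 (SD, n = 4) of control and 4.70% ± 0.543 (SD, n = 5) of DCHP reads, and 6 of its 26 lengths tested had an unadjusted p below 0.05, beside 10.3% of all pairs of class and length. Its 30 to 32 nt reads were lower, with log2 fold changes of -0.48, -0.50 and -0.41, and its 43 to 45 nt reads higher, at 0.56, 0.63 and 0.74. Whether the reads on bases 3032 to 3359 come from the Lars2 mRNA was not tested.

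Long noncoding and other long RNAs were mostly lower in DCHP, as snoRNAs were. Of 3177, 72 had an unadjusted p below 0.05, 8 higher and 64 lower, and the median log2 fold change was -0.17. That is 2.27% of them, beside 2.21% of all gene groups. With total miRNA reads as library size, 0 were higher and 20 lower, beside 0.385% of all gene groups. Without control 3 the median was 0.13, beside 0.12 over all gene groups. Of 2702 then tested, 96 were higher and 9 lower, beside 3.77% of all gene groups, so the lower values were those against 1 control library. Without control 2, 11 were higher and 228 lower, without DCHP 1 5 and 125, and without DCHP 4 9 and 36. Of all gene groups, 3.85%, 2.73% and 1.53% were then below 0.05. Control 3 had 1.05% of its reads in this class, and the other 8 libraries 0.527% to 0.706%. Neat1, the scaffold of nuclear paraspeckles, was at 2594 RPM in control 3, at 1056 to 1475 RPM in the other controls and at 974 to 1587 RPM in DCHP libraries (log2 fold change -0.38, SE 0.26). Malat1, of nuclear speckles, was at 743 to 1480 RPM in control and 715 to 1098 RPM in DCHP libraries. Gm45553 had the second smallest unadjusted p of all gene groups with a log2 fold change of -1.64 (SE 0.39), at 0.336 to 0.509 RPM in control and 0.0680 to 0.232 RPM in DCHP libraries, which did not overlap. Only with the control group, where it was higher, did Gm45553 meet the filter of at least 10 reads in at least 4 libraries. Its rank and lack of overlap are thus not independent of the filter.

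Single sequences were tested as well. Of 19999 tested, 0 passed in edgeR (0.0%), with a smallest adjusted p of 0.101. In DESeq2, 112 passed on total reads (0.56%), 96 higher and 16 lower, and 90 with its own size factors (0.45%), 74 higher and 16 lower. In edgeR with total miRNA reads as library size, 51 passed (0.255%), 27 higher and 24 lower. In edgeR 1048 had an unadjusted p below 0.05 (5.24%), of which 840 were higher. With total miRNA reads as library size 461 did, of which 308 were higher, and without DCHP 3 1681 did. Of 183 mt-Th sequences, 145 had an unadjusted p below 0.05 and all 145 were higher, with a median log2 fold change of 2.03, and so were 56 of 63 sequences with 2 G before mt-Th, with a median of 1.86. These sequences overlap along 1 gene and are not independent. Of the 112 that passed in DESeq2, 50 were mt-Th sequences and 14 had 2 G before mt-Th. The other unmatched sequences had 497 of 10955 below 0.05, with a median of 0.08, and -0.07 with total miRNA reads as library size. Of the 335 snoRNA sequences, 4 were higher and 15 lower at an unadjusted p below 0.05, together 5.67%, beside 5.24% of all sequences.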

How the data were processed

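The authors deposited, for each library, counts of every distinct clean read of 15 to 45 nt, without normalization or molecular identifiers. The study analysed them with SPORTS1.1 and scaled levels to total miRNA, and the labels name mm10. Adapter and quality settings are not given in the sources used here. The reads were matched here on the sense strand to small RNA genes (at most 1 mismatch) and then to transcripts (exact, at least 20 nt) of GENCODE M21 and RefSeq GRCm38.p6, the build that mm10 names. Small RNA genes sharing over 50% of their reads were merged. Copies of repeated genes, and genes overlapping on a strand, cannot be told apart. No genome or 28S rRNA was used.

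Tests of counts were made in R 4.3.3 with edgeR 4.0.16 (quasi-likelihood) with total reads as library size, over features with at least 10 reads in at least 4 libraries, and p-values were adjusted by Benjamini-Hochberg over all features. The threshold was an adjusted p of 0.1. Shares and lengths were tested with two-sided exact permutation tests in Python 3.11.15 with numpy 2.4.6. The edgeR and permutation steps were tested on simulated data. DESeq2 1.42.0, other library sizes, filters, matching rules and leaving out libraries were alternatives.

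The genes named were the 2 of smallest p and the 3 most abundant of each class, and from each list the 2 most abundant and the 2 of largest fold change, with every mitochondrial tRNA. Mir146b, Mir106b, Gm23711 and a few sequences were chosen after their values were seen, and Prm2 for the check of the tissue. The members, classes and lists were chosen with earlier results of these data known. Same-numbered control and DCHP libraries had deviations from their group means correlated with r of -0.152, -0.0117, 0.198 and 0.0746, so the numbers were not taken to pair them. Counts of reads from PCR are not counts of molecules, and intervals of counting error are not given.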

Additional observations from a re-analysis of the deposited data

Results flagged for a closer look

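Of 270 sets of 4 or 5 libraries, 23 had a library far from the others of its group by Dixon's criterion, which chance alone gives in about 1 in 20 sets. The miRNAs of DCHP 5 made up the largest number: Mir143 at 111 RPM, Mir881 at 21, Mir465b-1 at 18.6, Mirlet7c-2 at 139, Mirlet7f-2 at 59.2, Mirlet7i at 17.2 and Mir429 at 2.40 RPM, with the spermatogenic list at 59.99, the let-7 list at 304 and the muscle list at 113 RPM. These share 1 library and are not independent.

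Mir122, the 1 member of the liver list, stood apart at 129 RPM in control 2 and 111 RPM in DCHP 2. Control 3 stood apart for mt-Te at 173.5 RPM, mt-Atp6 at 31.4 RPM, the blood mRNA list at 63.8 RPM and Zakit at 125 RPM. Control 1 stood apart for mt-Rnr1 at 0.0842% of reads, or 842 RPM, for Vim at 5.31 RPM, for Bc1-ps1 at 0.708 RPM and for mt-Ts1 at 0.708 RPM. mt-Th was not among them.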

How the results depend on the processing

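No gene group passed in edgeR with total reads. 1 passed with total miRNA as library size (Mir146b, higher) and 1 with DESeq2 size factors (Gm23711, lower). With the replicate block 1 passed (mt-Th, higher), and whether the replicate numbers pair the libraries is not given in the sources used here. With exact matches 1 passed (Gm26117, higher), whose leading read has 1 mismatch and may be of another gene. Its log2 fold change went from 0.89 to 2.26. Without a filter on low counts 45 of 42344 passed (38 higher, 7 lower, mt-Th and 8 named miRNAs among them). Of class and length pairs, 18 passed with DESeq2 on total reads and 11 with its size factors, of which 17 and 10 were mitochondrial tRNA. Of single sequences, 51 passed with the miRNA library size, 112 with DESeq2 on total reads and 90 with its size factors, and leaving out 1 library gave 0 to 3. For gene groups, pairs of class and length, rRNA windows, class totals, read lengths and mean lengths, leaving out 1 library gave 0, and it was not run for the difference between methods. rRNA windows had 0 under the alternatives run. So had class totals, read lengths and mean lengths, but their permutation tests say nothing of stability, since 1 class or length at the smallest p of 0.00794 (0.125 with the replicate block) cannot pass after adjustment. The cause of these differences was not tested. Among 120 named results no called value was reversed, and 173 signs turned among values that had not passed. Mir146b had a log2 fold change of 0.67 without DCHP 5. The median of all gene groups moved to 0.12 without control 3 and to -0.10 with the miRNA library size. Counting reads with 2 G before mt-Th for this gene, leaving out DCHP 4 and 5, and lengths without mt-Th were chosen after seeing the data.

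Libraries of a group differed over genes by a chi-square of at least 9.83 for each degree of freedom, so their spread exceeds counting error. Genes under 1 RPM rest on few reads. Reads of 28S rRNA and of most nuclear tRNAs had no reference of their own here. They can be among the unmatched reads or with transcripts that share their sequence. Long noncoding RNAs of the rRNA locus were kept as a class of their own for this reason. The labels give no batch.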
